A study of Canis lupus familiaris with 7 samples.

Results

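The mitochondrial ribosomal proteins were read in the left ventricle of dogs by every probe set of an Affymetrix canine array whose only gene symbol begins with MRPL or MRPS and a number. A probe set is a short group of probes aimed at 1 transcript. The rule used names alone and found 162 probe sets among the 42924 that are not the array maker's controls. They stand for 73 of the 15115 genes so named on the array, with 102 probe sets for 47 MRPL genes and 60 probe sets for 26 MRPS genes. The low-salt group holds 4 arrays, numbered 1 to 4, from adult male mongrel dogs fed 0.5% sodium chloride for 2 weeks. The control group holds 3 arrays, numbered 1, 3 and 4, from control dogs, and the sources used here do not give their diet. All 7 arrays carry total RNA of the left ventricle, and the animals of both groups are labelled male. The series text counts 10 dogs on the diet, and the labels do not say whether each array holds 1 animal or a pool, so p-values here measure the spread between these samples. The comparison asks which heart transcripts differ when the diet is low in salt.

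Mitochondria keep a small genome of their own that encodes core subunits of the respiratory chain, and they translate it on a ribosome that resembles the bacterial one. The RNA of that ribosome comes from the mitochondrial genome, while all its proteins are encoded in the nucleus and imported. Proteins with symbols starting MRPL are named for the large subunit, which joins amino acids, and those starting MRPS for the small subunit, which reads the message. Some descend from proteins of bacterial ribosomes, and others exist only in mitochondria. Heart muscle, which lives on oxidative metabolism, depends on this machinery, and inherited defects of several of its proteins cause cardiomyopathy in human.

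Levels below are log2 of the array signal plus 16, after quantile normalization, which gives every array the same distribution of values. Differences are low salt minus control on that scale, and they understate the change of dim probe sets. A level of 1 probe set cannot be set against that of another, since each binds its target with its own strength. In ventricle tissue a lower signal cannot separate fewer cells of a type from less RNA per cell.

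Of the 162 probe sets, 146 were bright enough to be tested, 92 of MRPL genes and 54 of MRPS genes. The test, limma over 28616 probe sets with Benjamini-Hochberg adjustment, passed 0 of the 146 at an adjusted p of 0.05, against 0.346% of all tested probe sets. The methods' t-test after the same adjustment also passed 0 of them. The smallest adjusted p of any was 0.294. At an unadjusted p of 0.05, limma had 6 higher in low salt, against 5.27% of all tested probe sets, and 3 lower, against 5.78%. The methods' t-test had 2 higher, against 4.96% of all, and 0 lower, against 5.08%. The series text asks for both an unadjusted p of 0.05 and 2-fold. With limma's p at these thresholds 1 was higher (1.67% of all) and 2 were lower (2.73% of all). With the methods' t-test at the same thresholds 0 of the 146 were called, against 871 of the 28616 tested probe sets. In 3 probe sets the groups did not overlap with low salt on the higher side, against 5.13% of all, and in 0 with low salt on the lower side, against 5.68%. Each of these shares is below that of the whole array, but the order for higher probe sets turned in other settings: 16.3% of the mitochondrial ribosomal probe sets, against 9.92% of all, were higher with array medians set equal, 8.22% against 6.76% without low-salt 3, and 6.16% against 5.8% without control 3. With signals as deposited and with no filter on dim probe sets the shares were nearly equal.

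The other 16 probe sets fell below the brightness filter and were not tested. Their differences ran from -1.18 to 0.31. MRPL41 and MRPS34, each with 1 such probe set, are the genes with no tested probe set. For the other 71 genes the brightest tested probe set stands for the gene, 46 MRPL genes and 25 MRPS genes.

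By gene the differences were small and mostly above 0. The median was 0.12 over the MRPL genes, with 39 of 46 above 0, and 0.05 over the MRPS genes, with 16 of 25 above 0. Over all 11381 genes the median was 0.05, and 56% lay above 0. The MRPL genes ran from -1.05 (MRPL53) to 0.63 (MRPL4), and the MRPS genes from -0.19 (MRPS21) to 1.18 (MRPS27). At an unadjusted p of 0.05 stood 1 gene that was higher, against 5.57% of all genes, and 1 that was lower, against 4.89%. Most of the 95% intervals span 0.

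**Figure D1:**
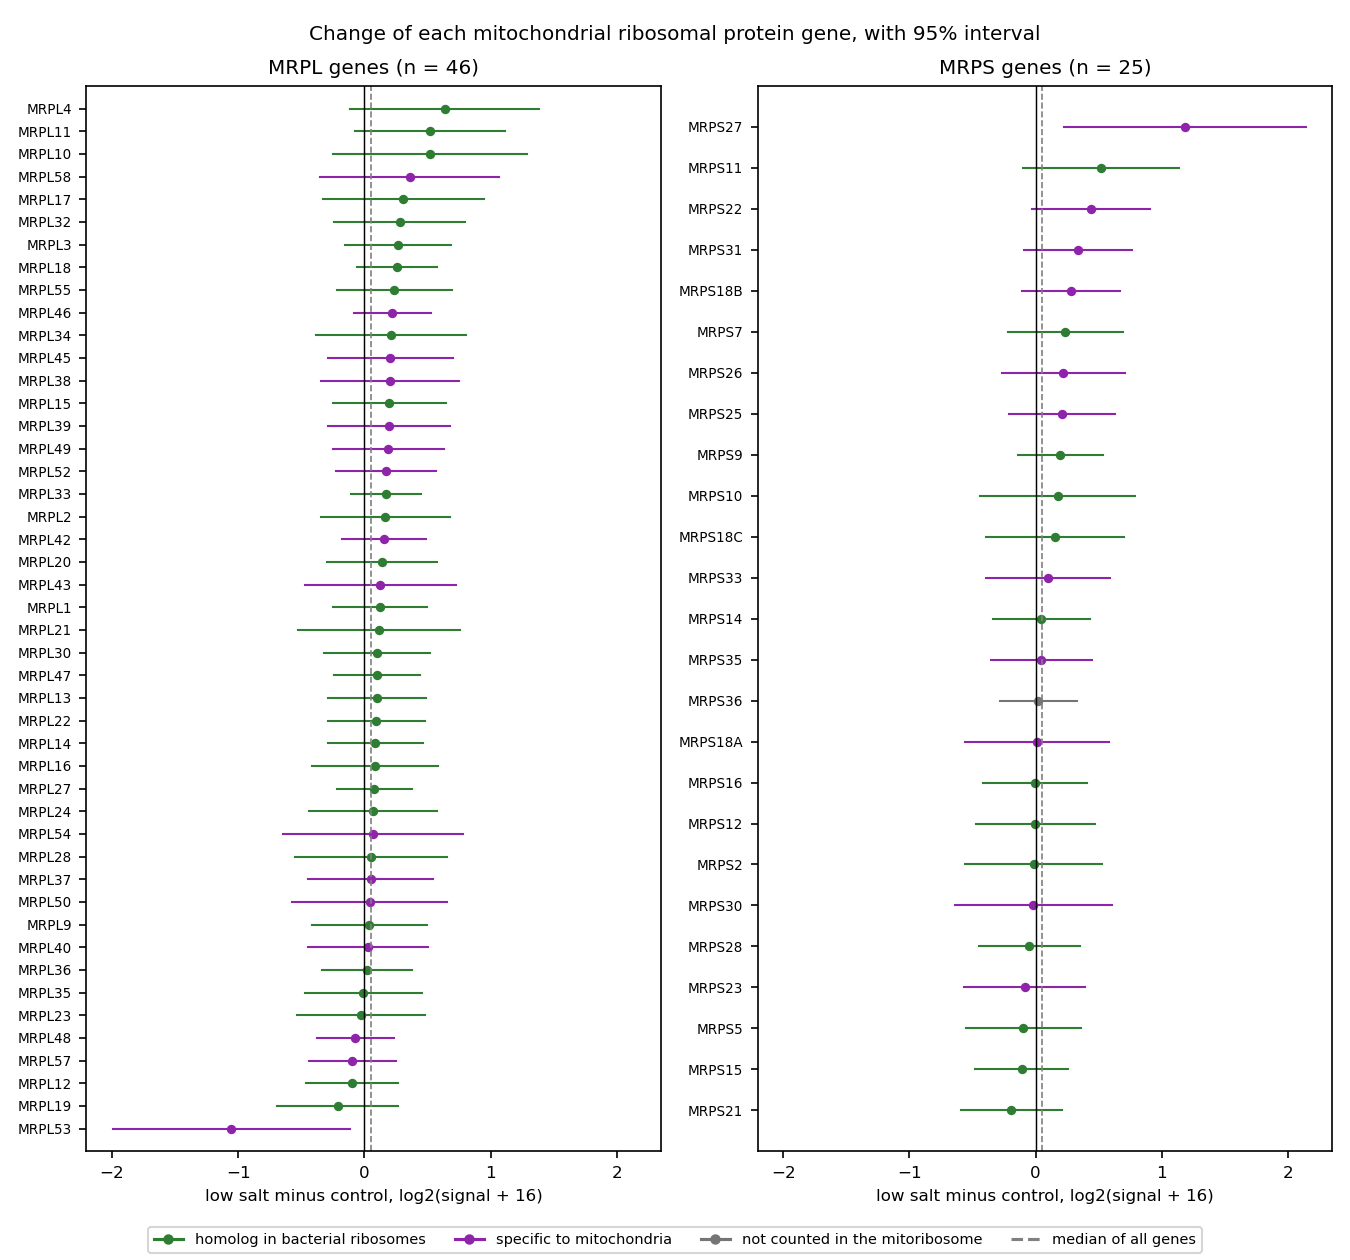
Each row is 1 gene, drawn by its brightest tested probe set: the point is the difference, low salt minus control, in log2(signal + 16), and the line its 95% interval from limma. MRPL genes are on the left and MRPS genes on the right, with colour for origin and a dashed line at the median of all genes (0.05). Except for MRPL53 on the low side and MRPS27 on the high side, every interval reaches 0.

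After quantile normalization the intervals were narrow compared with those of the array as a whole. The median half-width of the 95% interval was 0.46 over the 71 genes and 0.73 over all genes. This was not particular to them. The residual SD between arrays had a median of 0.25 over the 71 genes and 0.40 over all genes. It was smaller still over cytosolic ribosomal protein genes (0.18) and nuclear respiratory chain genes (0.17). The interval lay wholly within 1 on either side of 0, a 2-fold difference on this scale, for 64 of the 71 genes (90.1%), against 49.8% of all genes. Within 0.5 on either side it lay for 21 genes (29.6%), against 7.64% of all genes. These bounds belong to that scaling. With signals as deposited 65 of the 71 intervals lay within 1 (91.5%), against 40.3% of all genes. With array medians set equal only 2 did (2.82%), against 24.5% of all genes. The median half-width was then 0.78 over the 71 genes and 0.79 over all genes, so the contrast with the whole array did not hold there.

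The arrays themselves were not alike, and control 1 decided much of the small shift. Around each gene's mean over the 7 arrays, the median deviation of the MRPL genes was 0.06, 0.04, 0.04 and 0.07 in low-salt arrays 1 to 4, against -0.23, 0.04 and -0.03 in controls 1, 3 and 4. For the MRPS genes it was 0.02, 0.02, 0.12 and -0.02 in the low-salt arrays, against -0.28, 0.04 and 0.08 in the controls. Control 1 stood apart in both. Controls 3 and 4 overlapped the low-salt arrays for the MRPS genes and lay below all of them for the MRPL genes, control 3 by less than 0.01. Control 1 held the lowest of the 7 values for 35 of the 71 genes (49.3%), against 22.9% of all genes, and the highest for 0. Over all genes its median deviation was -0.07. Without control 1 the median difference was 0.04 over the MRPL genes, with 28 of 46 above 0, and 0.01 over the MRPS genes, with 13 of 25 above 0. The share of all genes above 0 was then 51.9%, and 59 of the 71 mitochondrial ribosomal genes had a smaller difference than with all arrays.

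**Figure D2:**
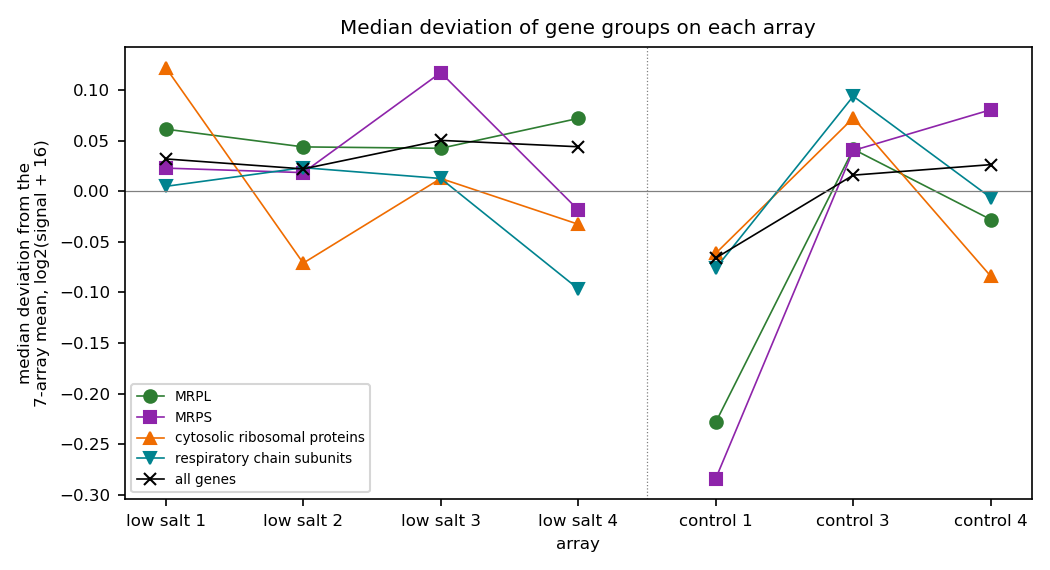
Each point is the median, over the genes of 1 group, of the deviation from that gene's mean over the 7 arrays, in log2(signal + 16); low-salt arrays are on the left and control arrays on the right, and the lines only join points of a group within a diet. The MRPL and MRPS points lie between -0.03 and 0.12 on every array but control 1, where they are at -0.23 and -0.28.

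Control 1 was also extreme in 1 of 2 readings of RNA integrity, and not in the other. The signal near the 3′ end of GAPDH divided by that near its 5′ end, which grows as RNA breaks, was 17.2, 16.6, 14.5 and 22.6 in the low-salt arrays for one pair of control probe sets, against 40.9, 24.4 and 22.7 in the controls. A second pair gave 2.36, 2.03, 2.28 and 2.41 in the low-salt arrays, against 2.43, 2.78 and 2.53 in the controls. In both pairs the low-salt arrays lay below the controls without overlap, with an exact two-sided permutation p of 0.0571 for each, the smallest that 35 splits of the arrays allow. Control 1 was highest in the first pair and lowest of the controls in the second. Some cell type markers set it apart too, by sums taken before quantile normalization. Over the 10 cardiomyocyte markers the deposited signals summed to 122600 on control 1, the highest of the 7 arrays, and the sums of 4 smooth muscle markers (575.2) and 3 adipocyte markers (910.6) were the lowest. Its sums of endothelial (7010), fibroblast (15660), macrophage (957.7) and atrial markers (4455) were neither the highest nor the lowest. The part of RNA integrity and of cell makeup in the small shift was not tested. Low-salt 3 and control 4 had the highest median signals as deposited, at 44.2 for low-salt 3 and 51.3 for control 4, and their levels correlated at 0.947 over the tested probe sets, above the correlation of either with an array of its own diet.

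Among the large subunit proteins with bacterial homologs, those named by smallest p with a higher level in low salt were MRPL11, MRPL4, MRPL18, MRPL10 and MRPL3. MRPL4, whose bacterial homolog lines the exit tunnel, was read at 7.01, 6.57, 5.75 and 6.90 in the low-salt arrays, against 5.96, 6.16 and 5.65 in the controls. Low-salt 3 lay among the controls and the other low-salt arrays above them, giving 0.63 ± 0.35 (SE, limma adjusted p = 0.534). The second MRPL4 probe set gave 0.61, with low-salt 1 and control 1 at 5.82 and 5.92. MRPL11 and MRPL10 belong to the stalk that recruits translation factors to the ribosome, together with MRPL12. MRPL11 had 7.55, 7.83, 7.12 and 7.72 in the low-salt arrays, against 7.07, 7.34 and 6.68 in the controls. Its difference was 0.52 ± 0.28 (SE, limma adjusted p = 0.516), and low-salt 3 overlapped the controls. MRPL10 had 6.05, 5.48, 6.46 and 6.36 in the low-salt arrays, against 5.12, 5.55 and 6.03 in the controls, a difference of 0.52 ± 0.36 (SE). For MRPL12, also of the stalk, which in human also binds the mitochondrial RNA polymerase, the levels were 10.00, 9.87, 10.09 and 10.38 in the low-salt arrays, against 10.16, 10.19 and 10.19 in the controls. The controls sat within the low-salt range, and its second probe set gave 0.29 where the brightest gave -0.10.

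MRPL3 is mutated in an inherited human cardiomyopathy. It was read at 10.33, 10.09, 10.15 and 9.87 in the low-salt arrays, against 9.45, 10.00 and 10.07 in the controls. Control 1 was the low array, and the difference was 0.27 ± 0.19 (SE, limma adjusted p = 0.642), with 0.30 and 0.49 in its other 2 probe sets. MRPL18, whose bacterial homolog binds 5S ribosomal RNA, gave 0.26 in its brightest probe set and 0.18, 0.14 and 0.09 in the others. MRPL46, specific to mitochondria, gave 0.22 and 0.12. Of the 30 MRPL genes with bacterial homologs 26 lay above 0 (median 0.11), and of the 16 specific to mitochondria 13 did (median 0.14).

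MRPL53, a large subunit protein found only in mitochondria, had the lowest difference by gene. Its levels were 7.89, 8.10, 8.64 and 9.03 in the low-salt arrays, against 9.10, 10.81 and 8.50 in the controls. Low-salt 3 and 4 lay above control 4, and control 3 was far above every other array. The atrial light chain MYL4, a marker of another tissue, followed nearly the same order. It was at 6.99, 7.61, 8.90 and 9.99 in the low-salt arrays, against 10.67, 11.78 and 9.07 in the controls. MYL7, the other atrial marker tested, did not follow it. Its difference was 0.39, with the highest level in low-salt 3 (12.586) and the lowest in control 4 (11.295). Whether atrial tissue has a part in the MRPL53 difference was not tested. The MRPL53 difference was -1.05 ± 0.44 (SE, limma adjusted p = 0.400), and without control 3 it was -0.38. Its second probe set was too dim to test and gave -0.41. The other MRPL genes named on the lower side were close to 0, with -0.21 for MRPL19, -0.10 for MRPL57, -0.07 for MRPL48 and -0.03 for MRPL23. All of these, MRPL12 included, lay above 0 once array medians were set equal in place of quantile normalization, and MRPL53 did not.

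In the small subunit MRPS27, a mitochondria-specific protein with pentatricopeptide repeats, had the highest difference of any mitochondrial ribosomal gene. Its levels were 6.44, 7.03, 7.09 and 6.51 in the low-salt arrays, against 4.46, 5.57 and 6.72 in the controls. The 4 low-salt arrays lay close together, whereas the controls spread widely, and control 4 lay within the low-salt range. The difference was 1.18 ± 0.45 (SE, limma adjusted p = 0.363), 2.27-fold on the offset scale. Control 1 had a deposited signal of only 7.11. Without control 1 the difference was 0.62 (adjusted p = 0.695), and without control 4 it was 1.75 (adjusted p = 0.0486). The 2 other MRPS27 probe sets were too dim to test and gave -0.32 and -1.18.

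MRPS22 and MRPS14 are both mutated in human disorders that affect the heart muscle. MRPS22 was read at 8.62, 8.96, 8.99 and 8.98 in the low-salt arrays, against 8.31, 8.27 and 8.78 in the controls. Control 4 lay above low-salt 1 and below the others, and the difference was 0.44 ± 0.22 (SE, limma adjusted p = 0.489). MRPS14 had 11.04, 10.92, 11.34 and 10.88 in the low-salt arrays, against 10.61, 11.22 and 11.16 in the controls. The groups overlapped, with 0.05 in this probe set and -0.06 in the other.

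MRPS11, the homolog of bacterial S11, had 6.83, 6.98, 7.58 and 7.16 in the low-salt arrays, against 6.65, 6.30 and 6.91 in the controls, with control 4 above low-salt 1 only. Its difference was 0.52 ± 0.29 (SE, limma adjusted p = 0.544). MRPS31 had 0.34, with 0.42 in its second probe set, and MRPS9 had 0.20. On the lower side stood MRPS21 (-0.19), MRPS15 (-0.11), MRPS5 (-0.10), MRPS23 (-0.09), MRPS28 (-0.05) and MRPS30 (-0.02), all of which lay above 0 with array medians set equal. Of the 13 MRPS genes with bacterial homologs 6 lay above 0, with a median of 0.00 to 2 decimals, and of the 11 specific to mitochondria 9 did, with a median of 0.21; the difference between these medians was not tested.

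The 3 MRPS18 paralogs take different places in the ribosome, and in the split by origin only MRPS18C was counted as the homolog of the bacterial protein. MRPS18B gave 0.28 ± 0.18 (SE), with 0.27 and 0.51 in its other probe sets. MRPS18A, which structures place in the large subunit, gave 0.01, with 0.09 and -0.09 in the others. MRPS18C gave 0.15 in its brightest probe set and -0.72 in a second. MRPS30, also a large subunit protein in structures, had -0.02, 0.19 and 0.41 in its 3 probe sets. MRPS36, now known as a member of the 2-oxoglutarate dehydrogenase complex and not of the ribosome, had 0.02, -0.22 and -0.79. Counted by the subunit seen in structures, the median was 0.11 over 48 large subunit genes and 0.13 over 22 small subunit genes.

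The 9 probe sets with an unadjusted p under 0.05 belong to 8 genes, and only for MRPS27 and MRPL53 is this the brightest probe set. Affymetrix marks a probe set that matches transcripts of several forms or genes by its suffix (a for forms of 1 gene, s for shared probes, x for probes that may bind unrelated transcripts). On the higher side these were, after MRPS27, a dimmer probe set each of MRPL28, MRPS33, MRPS12, MRPL58 and MRPL20. MRPL28, homolog of bacterial L28, had 7.68, 7.67, 7.12 and 7.82 in the low-salt arrays, against 6.55, 7.53 and 6.14 in the controls. Control 3 lay within the low-salt range, the difference was 0.84 ± 0.34 (SE, limma adjusted p = 0.390), and the gene's 2 other probe sets gave 0.06 and -0.09. MRPS33, a mitochondria-specific small subunit protein, had 6.54, 6.48, 6.13 and 6.67 in the low-salt arrays, against 5.29, 6.56 and 5.05 in the controls. Again control 3 lay among the low-salt arrays, the difference was 0.82 ± 0.38 (SE, limma adjusted p = 0.446), and its other 3 tested probe sets gave 0.10, -0.01 and 0.33.

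MRPS12, part of the centre that decodes the message, had 7.47, 7.74, 7.22 and 7.76 in the low-salt arrays for its dimmer probe set, against 6.78, 7.59 and 5.87 in the controls, a difference of 0.80 ± 0.36 (SE, limma adjusted p = 0.434). In its brightest probe set the values were 9.27, 9.05, 9.19 and 8.96 in the low-salt arrays, against 8.80, 9.58 and 8.98 in the controls, and the group means were both 9.12. In the second MRPL20 probe set, MRPL20 being the homolog of bacterial L20, the low-salt values were 8.32, 8.79, 9.004 and 8.25, against 8.07, 7.92 and 8.15 in the controls. The groups did not overlap, the difference was 0.55 ± 0.24 (SE, limma adjusted p = 0.431), and the brightest MRPL20 probe set gave 0.14. The other 2 probe sets with no overlap were dimmer ones of MRPL38 (0.66 ± 0.35, SE) and MRPS9 (0.48 ± 0.23, SE), whose brightest gave 0.21 and 0.20. The second probe sets of MRPS12, MRPL20, MRPL38 and MRPS9 were chosen for mention after their values were seen.

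**Figure D3:**
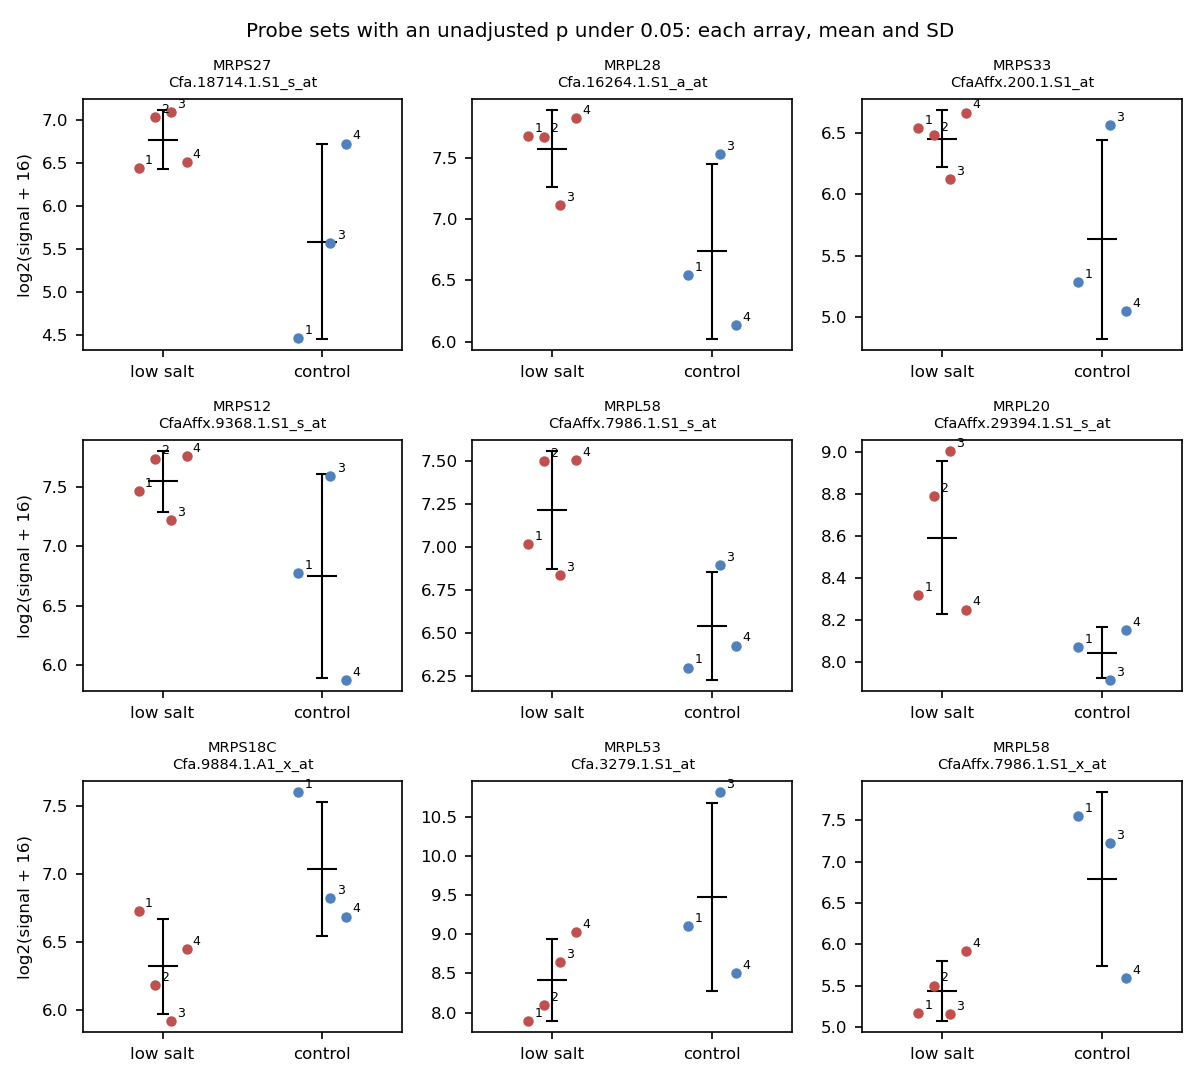
Each panel is 1 of the 9 probe sets with an unadjusted p under 0.05, with its symbol and array identifier above; points are arrays, numbered, in log2(signal + 16), low salt left of control, and bars are the group mean and SD. The vertical axes differ and do not start at 0. In 8 of the 9 panels the groups overlap, and MRPL20 is the panel without overlap.

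MRPL58 is a peptidyl-tRNA hydrolase related to release factors that became a fixed part of the large subunit, and its 5 tested probe sets disagreed most, over a range of 2.03. The brightest gave 0.36, with 8.74, 8.14, 9.54 and 8.85 in the low-salt arrays, against 7.91, 8.38 and 9.09 in the controls. One s-type probe set had 7.01, 7.50, 6.84 and 7.50 in the low-salt arrays, against 6.30, 6.89 and 6.43 in the controls, a difference of 0.67 ± 0.29 (SE, limma adjusted p = 0.418). The x-type probe set of the same identifier apart from the suffix had 5.17, 5.50, 5.16 and 5.92 in the low-salt arrays, against 7.55, 7.22 and 5.60 in the controls. Controls 1 and 3 lay far above the low-salt arrays and control 4 among them, and the difference was -1.35 ± 0.44 (SE, limma adjusted p = 0.294). Without control 4 it was -1.95 (adjusted p = 0.0162), and without control 4 and low-salt 3 it was -1.86 (adjusted p = 0.0189). A second x-type probe set showed the same order of arrays among the controls, with 5.91, 4.37, 4.61 and 5.69 in low salt, against 7.47, 6.90 and 4.52 in the controls, and gave -1.16. The last one gave 0.45. The same gene was thus above 0 in 3 probe sets and below 0 in 2.

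MRPL33 and MRPS18C showed the same kind of split. MRPL33, homolog of bacterial L33, had 11.78, 11.80, 11.70 and 11.81 in the low-salt arrays for its bright probe set, against 11.40, 11.80 and 11.60 in the controls, a difference of 0.17 ± 0.13 (SE). Its dim one gave -0.85 ± 0.40 (SE, limma adjusted p = 0.458). MRPS18C, the small subunit member of its trio, had 6.73, 6.19, 5.92 and 6.45 in the low-salt arrays for its x-type probe set, against 7.60, 6.82 and 6.69 in the controls. Low-salt 1 lay just above control 4, and the difference was -0.72 ± 0.32 (SE, limma adjusted p = 0.435), against 0.15 in the brightest.

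Over the 54 genes with 2 or more tested probe sets, 30 had all of them on 1 side of 0, and in 2 genes, MRPL58 and MRPL33, they lay more than 1 apart. The brightest probe set of each had a median difference of 0.10, 42 above 0 and 0 at an unadjusted p of 0.05 in either direction. The 75 dimmer ones had a median of 0.20, 58 above 0, and held 5 higher and 2 lower at that p. Residual spread between arrays was smaller in the brightest, with a median SD of 0.24, against 0.34 in the dimmer ones. By suffix, of 9 tested x-type probe sets 0 were higher and 2 lower, and of 70 s-type 4 were higher and 0 lower. Of 60 without such a mark 1 was higher and 1 lower, and of 7 a-type 1 was higher and 0 lower. Over all tested probe sets of every kind 5.27% were higher and 5.78% lower. Shares over the whole array by suffix or by brightness were not computed, so no result is read from these counts. Whether probes that bind other transcripts or low signal account for the disagreements was not tested.

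**Figure D4:**
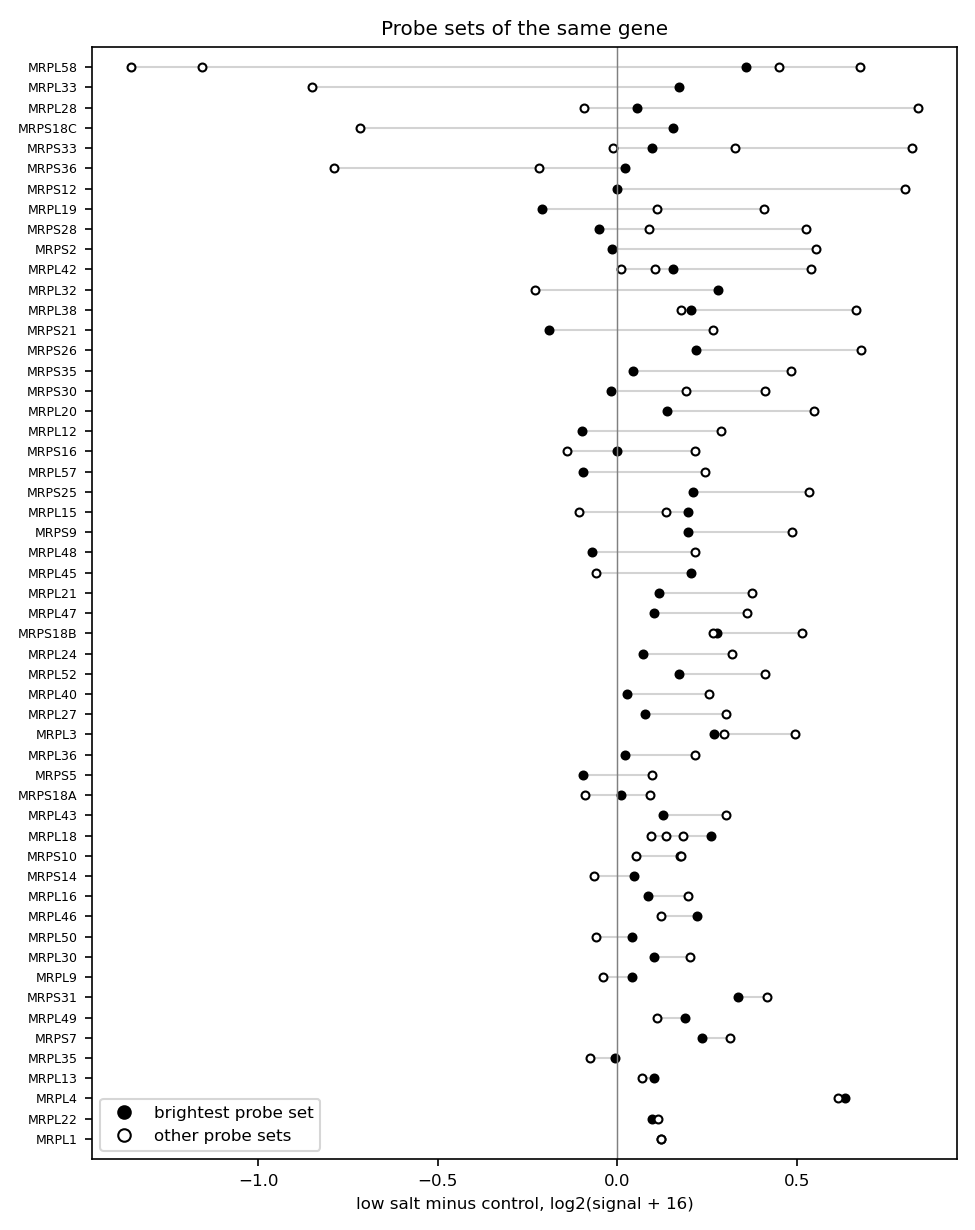
Each row is 1 of the 54 genes with 2 or more tested probe sets, ordered by the distance between them; points are differences, low salt minus control, in log2(signal + 16), filled for the brightest probe set and open for the others. The widest row is MRPL58 (range 2.03), and the median is 0.10 over the filled points and 0.20 over the open ones.

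Set beside other proteins of translation and respiration, the mitochondrial ribosomal genes lay slightly higher, by amounts that no test compared. The 58 cytosolic ribosomal protein genes had a median difference of 0.03, with 34 above 0, and the 62 nuclear genes of respiratory chain subunits a median of -0.02, with 29 above 0. On control 1 these families deviated by -0.06 and -0.08, less than the MRPL and MRPS genes did. Without control 1 the MRPS median (0.006) was below the cytosolic one (0.016). The MRPL median was then 0.04 and the respiratory chain median -0.06.

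How far the mitochondrial ribosomal genes stood above all genes depended on the scaling between arrays. With signals as deposited the medians were 0.21 for MRPL (41 of 46 above 0) and 0.17 for MRPS genes (20 of 25), against -0.14 for all genes (38.7% above 0), 0.08 for cytosolic ribosomal and -0.01 for respiratory chain genes. With array medians set equal they were 0.64 for MRPL (45 of 46 above 0) and 0.60 for MRPS genes (25 of 25), against 0.30 for all genes (71.1% above 0), 0.51 for cytosolic ribosomal and 0.43 for respiratory chain genes. Setting array medians equal moves the difference of every gene from its value as deposited by the same amount. The gaps between medians are therefore equal in these settings by construction, and count as 1 result. The MRPL median stood 0.35 above that of all genes in both, and 0.06 above it after quantile normalization. The MRPS median stood 0.30 above it in both, and -0.01 from it after quantile normalization. That small gap of the MRPS genes also depended on other choices: it was 0.21 over the mean of each gene's probe sets, 0.10 without control 3, 0.09 without control 4 and 0.08 without low-salt 4.

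**Figure D5:**
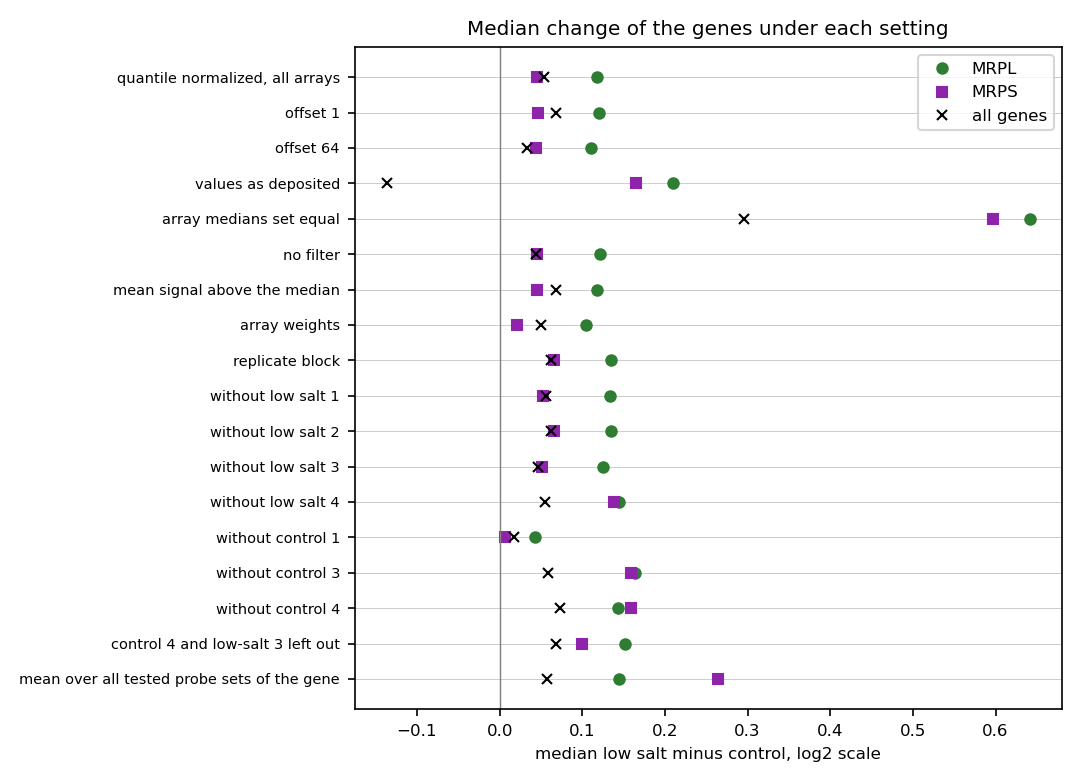
Each row is 1 way of processing or 1 array left out, and the points are the median difference, low salt minus control, over MRPL genes (circles), MRPS genes (squares) and all genes (crosses) on a log2 scale. MRPL and MRPS medians are above 0 in every row, lowest without control 1 (0.04 and 0.01) and highest with array medians set equal (0.64 and 0.60), where all genes are at 0.30.

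The rest of the mitochondrial translation machinery was read by the same test, which passed 0 genes of the lists that follow at an adjusted p of 0.05. Subunits without an MRP symbol and partners in the inner membrane had 7 genes tested, 6 above 0 and a median of 0.29, with 2 higher and 0 lower at an unadjusted p of 0.05, against 5.57% and 4.89% of all genes. GADD45GIP1, a large subunit protein also known as CRIF1, had 7.001, 7.54, 7.83 and 8.01 in the low-salt arrays, against 6.80, 6.54 and 6.79 in the controls. All low-salt arrays lay above all controls, by 0.88 ± 0.29 (SE, limma adjusted p = 0.297). LETM1, an inner membrane protein that has been tied to the ribosome, had 5.50, 5.71, 5.30 and 5.64 in the low-salt arrays, against 4.16, 4.57 and 5.14 in the controls. It too had no overlap, with 0.92 ± 0.37 (SE, limma adjusted p = 0.391). The LETM1 probe set was dim, and its difference was 2.01 with an offset of 1 and 0.38 with an offset of 64. DAP3, a GTP-binding small subunit protein chosen after its values were seen, lay the other way without overlap in its brightest probe set, at 7.73, 7.72, 7.81 and 7.72 in the low-salt arrays, against 8.41, 8.06 and 7.94 in the controls. Its difference was -0.39 ± 0.23 (SE, limma adjusted p = 0.561), and 0.00 to 2 decimals with array medians set equal. Its other 2 tested probe sets gave 0.42, without overlap, and 0.36, so the sign of DAP3 was not settled.

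Of 12 mitochondrial translation factors 9 lay above 0, with a median of 0.11 and 0 at an unadjusted p of 0.05 in either direction. The 12 include MRPL58 (0.36), already counted among the MRPL genes, so this list is not fully separate from them. MTRF1L, a release factor, gave 0.54, and MTFMT, which formylates the initiator tRNA, gave 0.53. Factors of ribosome assembly and rRNA modification had 15 genes tested, 9 above 0 and a median of 0.20. METTL15, a methyltransferase of the small subunit rRNA, gave 1.001 ± 0.38 (SE, limma adjusted p = 0.363), and METTL17, an assembly factor, gave -0.65 ± 0.26 (SE, limma adjusted p = 0.380), the only members at an unadjusted p of 0.05 (5.57% of all genes higher and 4.89% lower). The other 2 tested probe sets of METTL17 gave 0.29 and -0.44, and with array medians set equal its brightest gave -0.17. Of 12 genes that handle mitochondrial mRNA 10 lay above 0, with a median of 0.23 and 0 at that p in either direction; TBRG4 gave 0.73 and FASTKD3 0.60, both of the FASTK family. Of 16 aminoacyl-tRNA synthetase genes 10 lay above 0, with a median of 0.06. NARS2, which charges the asparagine tRNA, gave 0.80 ± 0.36 (SE, limma adjusted p = 0.444), and KARS1, which serves cytosol and mitochondria, gave -0.57 ± 0.15 (SE, limma adjusted p = 0.178), with no overlap in that probe set and 0.01 to 0.17 in its other 3. With array medians set equal the KARS1 difference was -0.11 (limma adjusted p = 0.908).

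Upstream of these proteins, 6 genes that copy and transcribe mitochondrial DNA had 5 above 0 and a median of 0.15, with 0 at an unadjusted p of 0.05 in either direction; POLG2, a subunit of the DNA polymerase, gave 0.56, and SSBP1, which binds single-stranded DNA, gave 0.43. Of 9 nuclear regulators of mitochondrial genes 6 lay above 0, with a median of 0.25, 3 higher and 1 lower at that p, against 5.57% and 4.89% of all genes. PPARGC1A, the coactivator that drives mitochondrial biogenesis, had 8.17, 8.16, 8.13 and 8.38 in the low-salt arrays, against 9.44, 8.45 and 8.97 in the controls. Every control lay above every low-salt array, and the difference was -0.74 ± 0.25 (SE, limma adjusted p = 0.301). With array medians set equal it was -0.25 (limma adjusted p = 0.752). MYC, a transcription factor of growth, had 6.19, 5.12, 5.49 and 6.02 in the low-salt arrays, against 4.39, 4.71 and 4.73 in the controls. There was no overlap, and the difference was 1.10 ± 0.38 (SE, limma adjusted p = 0.321). The MYC probe set was dim, and its difference was 2.02 with an offset of 1 and 0.49 with an offset of 64.

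Markers of heart muscle were bright on every array. The ventricular light chain MYL2 was at 13.60 to 13.88 in low salt and 13.70 to 13.89 in controls. The deposited signals of 10 cardiomyocyte markers summed to 76520 to 104800 in low salt and 77590 to 122600 in controls, with a median difference of 0.01. All 7 macrophage markers lay above 0 (median 0.35, 2 higher at an unadjusted p of 0.05, against 5.57% of all genes), with sums of 1241 to 1678 in low salt and 948.1 to 1414 in controls. The median difference was 0.05 over 6 endothelial markers, -0.11 over 6 fibroblast markers, 0.16 over 4 smooth muscle markers and 0.55 over 3 adipocyte markers. Of 4 atrial muscle markers 2 were tested, and their sums were 3387 to 5778 in low salt and 2683 to 7147 in controls. MYL4 gave -2.14 ± 0.65 (SE, limma unadjusted p = 0.00536, adjusted p = 0.258) and MYL7 gave 0.39. The part of cell makeup in the differences of the mitochondrial ribosomal genes was not tested.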

How the data were processed

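Total RNA was labelled with biotin and hybridised to 1-colour arrays, per the labels' protocols. The authors deposited 1 linear intensity per probe set and array. The submitters' processing notes name GCOS, the software of the array's maker, as its source; version, probe summary and annotation are not stated there. The 2% trimmed mean was 150.04 to 150.05 on every array.

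The deposited intensity, plus 16, was put on a log2 scale. After removal of 111 control probe sets, quantile normalization made the arrays alike, since array medians lay over 0.25 apart. The dimmest 33.3% of the probe sets, by mean over the 7 arrays and blind to group, was set aside. On the other 28616, limma 3.58.1 (lmFit, eBayes with trend, R 4.3.3) compared low salt with control, with no covariate for want of a batch in the labels; Benjamini-Hochberg adjustment ran over all of them. The script was tested on simulated data. Single array measures were compared by exact permutation. Precision is limited by the number of arrays.

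Symbols came from the platform annotation. The gene table of assembly UU_Cfam_GSD_1.0 held the gene number of 149 of the 162 probe sets, under an identical symbol each time. One further probe set with several symbols was left out. No coordinates or sequences are printed. The members and all gene lists were chosen with earlier results of these data known. Genes were named by smallest p on each side of 0 within MRPL and MRPS (up to 6 each), by known disease or paralogy, by disagreement between probe sets, and 2 per related list; others are marked as chosen after their values were seen. Alternatives were offsets, scalings, filters, array weights, the methods' t-test, a replicate block, the mean over a gene's probe sets and leaving out arrays.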

Additional observations from a re-analysis of the deposited data

Results flagged for a closer look

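In 4 of the 63 named probe sets 1 of the 4 low-salt arrays stood far from the others. Its gap, divided by the group's range, exceeded Dixon's critical value at the 95% level. Chance alone does this for about 1 in 20 groups, close to the share seen here. MRPS18C was at 7.76 in low-salt 1, against 8.37 to 8.41 in the other low-salt arrays (gap 0.939 of the range). MRPS22 was at 8.62 in low-salt 1, against 8.96 to 8.99 in the others (0.925). DAP3 was at 7.81 in low-salt 3, against 7.72 to 7.73 (0.859). METTL17 was at 7.73 in low-salt 2, against 8.49 to 8.61 (0.857).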

How the results depend on the processing

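The count of mitochondrial ribosomal probe sets past an adjusted p of 0.05 was 0 under every setting run except without control 4 (2, MRPS27 and MRPL58) and without both control 4 and low-salt 3 (1, MRPL58), a setting added after the data were seen. The count over the whole array, 99, was 39 with an offset of 1, 165 with signals as deposited, 27 without a filter on dim probe sets, 177 with array weights, 5 by the methods' t-test, 297 without control 4 and low-salt 3, and 21 to 261 with 1 array left out. The 6 probe sets higher at an unadjusted p of 0.05 were 24 with array medians set equal (16.3% of those tested, against 9.92% of the whole array). They were 2 by the methods' t-test (1.37% against 4.96%). With 1 array left out they were 1 to 12 (0.685% to 8.22%), against 3.37% to 6.76% of the whole array. The 3 lower ones were 5 with an offset of 64 (3.42%, against 6.16% of the whole array) and 5 as deposited (3.4% against 10.9%). They were 1 with equal medians (0.68% against 3.81%) and 0 by the methods' t-test, against 5.08%. With 1 array left out they were 2 to 4 (1.37% to 2.74%), against 3.92% to 6.59% of the whole array. The MRPL median was 0.21 as deposited, 0.64 with equal medians and 0.04 to 0.16 with 1 array left out. The MRPS median was 0.60 with equal medians, 0.26 over the mean of each gene's probe sets and 0.01 to 0.16 with 1 array left out.

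The labels do not say whether equal array numbers pair the samples. Deviations from the group means correlated at 0.0743, -0.264 and -0.18 for numbers 1, 3 and 4, against 0.434 for control 4 and low-salt 3. Such deviations sum to 0 within each group, so these correlations cannot settle the pairing. With the replicate block, in which low-salt 2 has no partner, the whole array had 27 calls. At an unadjusted p of 0.05 the mitochondrial ribosomal probe sets had 1 higher (0.685%, against 2.56% of the whole array) and 3 lower (2.05% against 3.69%). MRPL23 (0.12), MRPS12 (0.022), MRPS28 (0.035) and MRPS30 (0.013) changed sign under the block.

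Of the 63 probe sets named, 42 kept their sign in every setting. Sign changed as deposited for MRPL12 (0.050), MRPL23 (0.016), the x-type MRPL28 (-0.078), MRPL48 (0.087), MRPL57 (0.037), MRPS12 (0.082), MRPS15 (0.034), MRPS28 (0.078), MRPS30 (0.12) and an x-type MRPS33 (-0.11). With equal medians it changed for DAP3 (0.0034), MRPL12 (0.48), MRPL19 (0.32), MRPL23 (0.45), MRPL48 (0.52), MRPL57 (0.47), MRPS12 (0.51), MRPS15 (0.47), MRPS21 (0.35), MRPS23 (0.38), MRPS28 (0.51), MRPS30 (0.55), another x-type MRPS33 (0.21) and MRPS5 (0.38). It changed with array weights for MRPS14 (-0.032) and MRPS18A (-0.070), and without control 4 and low-salt 3 for MRPL48 (0.026), MRPS18A (-0.097) and MRPS5 (0.067). With 1 array left out, ranges that crossed 0 were -0.096 to 0.22 for the x-type MRPL28, -0.21 to 0.041 for the s-type MRPL28, -0.13 to 0.12 for MRPL23, -0.14 to 0.039 for MRPL48, -0.19 to 0.049 for MRPS5, -0.16 to 0.23 for MRPS12, -0.15 to 0.16 for MRPS14, -0.24 to 0.016 for MRPS15, -0.17 to 0.24 for MRPS18A, -0.032 to 0.31 for MRPS18C, -0.19 to 0.0059 for MRPS23, -0.19 to 0.057 for MRPS28, -0.30 to 0.22 for MRPS30, -0.089 to 0.040 for an x-type MRPS33 and -0.057 to 0.11 for MRPS36. The cause of these changes was not tested. Dim probe sets, with values near the offset, carry the least information.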
